A study of Homo sapiens with 6 samples.

Results

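Nuclear genes are transcribed by 3 RNA polymerases. RNA polymerase I (Pol I) makes the large ribosomal RNA precursor, Pol II makes messenger RNA, and Pol III makes transfer RNA, the 5S ribosomal RNA and other short RNAs. Each is a complex of many subunits, some of which are shared between polymerases, and each is brought to its start sites by general transcription factors. For Pol II these are TFIIA, TFIIB, TFIID, TFIIE, TFIIF and TFIIH, where TFIID is TBP, the TATA-binding protein, with its associated factors (TAFs). Pol I uses TBP with other TAFs in the complex SL1, and Pol III uses TFIIIA, TFIIIB and TFIIIC. Demand for Pol I and Pol III products is known to be high in growing cells.

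The genes described here are those on the Affymetrix human U133 A array whose symbol begins with POLR1, POLR2, POLR3, GTF2 or GTF3, is TAF followed by a number, or is TBP, provided that a probe set is annotated to that gene alone. The rule took 98 of 22283 probe sets, which stand for 68 of 11963 genes with a probe set of their own. A gene is represented by its brightest probe set over all arrays. A further 12 probe sets matched the rule but were annotated to several genes as well, among them those for TAF9, POLR2M and the near-identical copies of POLR2J, and these were left out. POLR1A and POLR3A, the largest subunits of Pol I and Pol III, have no probe set under this rule and were not analysed here.

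The cells were HL60, an established human promyelocytic leukemia line, which tretinoin (all-trans retinoic acid, which binds retinoic acid receptors) drives toward granulocytes. Cells received 1 μM tretinoin in dimethyl sulfoxide (DMSO, 0.1% final) or the same concentration of DMSO alone, in both cases for 5 days, and the deposited table has 3 arrays of each. The study describes the arrays of a condition as hybridizations in parallel of pooled labeled product, so every p-value below measures the spread between hybridizations of 1 RNA pool per condition, not between cultures. Precision is limited by the number of arrays. Values are MAS5 signals scaled to equal array means, in arbitrary units, with values below 20 set to a floor of 20.

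Mean deposited signals ran from 91.3 to 132.7 on the tretinoin arrays and from 121 to 152 on the DMSO arrays, and scale factors from 0.820 to 1.36. Of 7 markers of HL60 identity 6 had a probe set, and 5 of these were above 20 on a tretinoin array and 6 on a DMSO array (summed signal 1341 to 1737 in tretinoin and 4124 to 4800.0 in DMSO). Most of that sum in DMSO was MPO, which averaged 129 in tretinoin and 3093 in DMSO. MPO, LYZ, AZU1 and ELANE were called lower, with ELANE at the floor on every tretinoin array. PTPRC (821 in tretinoin and 189 in DMSO) and SPI1 (224 in tretinoin and 119 in DMSO) were called higher. The 6 markers of other blood lineages on the array summed to 172 to 239 in tretinoin and 196 to 235 in DMSO. The 6 markers of the tretinoin response summed to 1135 to 1167 in tretinoin and 171 to 200.3 in DMSO. CD38, DHRS3, TGM2 and ITGAM were called higher. CYP26A1 (41.3 in tretinoin and 22.7 in DMSO) and RARB (44.1 in tretinoin and 49.6 in DMSO) overlapped between conditions and were not called. The 3′ over 5′ signal ratio of the array's control probes was 1.14 to 1.17 in tretinoin and 1.38 to 1.42 in DMSO for ACTB, and 1.15 to 1.19 in tretinoin and 1.06 to 1.17 in DMSO for GAPDH. The ACTB ratio moved with the condition, and its part in the results below was not tested.

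Promoters are shown for 5 of the called genes as examples, as the annotated sites at which these genes are transcribed. The share of windows with each motif is given below. Where the transcripts started in these cells was not measured, and the RefSeq gene TAF12 extends upstream of the window shown, to position 28648269. Windows of 250 bases before to 50 bases after the start were taken from RefSeq on GRCh38.p14, where 54 of the 68 genes had one. Capitals mark the E-box CACGTG, known as a binding site of MYC with MAX among other factors, and CCGGAAG, a core of ETS factor sites, each searched on both strands (the second reads CTTCCGG on the other). POLR1G lies at chr19:45406394-45406693 (+ strand), POLR3E at chr16:22297159-22297458 (+ strand), POLR1C at chr6:43516839-43517138 (+ strand), TAF12 at chr1:28643018-28643317 (- strand) and TAF7 at chr5:141320735-141321034 (- strand). The first 3 were lower in tretinoin and the last 2 were higher.
POLR1G: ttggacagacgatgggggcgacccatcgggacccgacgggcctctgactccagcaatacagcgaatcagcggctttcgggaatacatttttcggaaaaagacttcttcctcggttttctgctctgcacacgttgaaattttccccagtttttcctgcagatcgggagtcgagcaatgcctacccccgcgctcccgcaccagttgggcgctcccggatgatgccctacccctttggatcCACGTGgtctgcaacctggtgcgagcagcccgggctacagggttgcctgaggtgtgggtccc
POLR3E: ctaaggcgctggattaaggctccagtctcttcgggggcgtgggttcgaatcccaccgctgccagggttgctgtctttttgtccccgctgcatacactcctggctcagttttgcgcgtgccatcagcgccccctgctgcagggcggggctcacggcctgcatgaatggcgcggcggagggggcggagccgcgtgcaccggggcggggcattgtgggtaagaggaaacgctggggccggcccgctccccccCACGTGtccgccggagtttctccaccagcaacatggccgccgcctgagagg
POLR1C: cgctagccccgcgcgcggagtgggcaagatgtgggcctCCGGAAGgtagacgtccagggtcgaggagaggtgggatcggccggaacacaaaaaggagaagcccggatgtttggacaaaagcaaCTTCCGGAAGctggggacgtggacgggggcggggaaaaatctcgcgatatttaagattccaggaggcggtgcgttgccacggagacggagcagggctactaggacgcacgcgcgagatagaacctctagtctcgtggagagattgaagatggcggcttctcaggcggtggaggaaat
TAF12: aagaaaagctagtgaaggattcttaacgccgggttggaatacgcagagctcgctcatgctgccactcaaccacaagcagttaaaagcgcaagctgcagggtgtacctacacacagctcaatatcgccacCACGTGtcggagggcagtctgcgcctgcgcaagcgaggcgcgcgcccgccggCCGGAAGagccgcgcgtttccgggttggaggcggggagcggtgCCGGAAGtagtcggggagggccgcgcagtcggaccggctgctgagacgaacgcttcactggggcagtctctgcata
TAF7: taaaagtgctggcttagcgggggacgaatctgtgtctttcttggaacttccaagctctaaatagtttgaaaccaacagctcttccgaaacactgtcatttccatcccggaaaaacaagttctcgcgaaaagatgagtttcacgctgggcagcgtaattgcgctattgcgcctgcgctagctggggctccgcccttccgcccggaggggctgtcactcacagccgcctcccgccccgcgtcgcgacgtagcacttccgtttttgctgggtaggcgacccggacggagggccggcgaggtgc

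The E-box began 12 bases before the start in POLR1G, 1 base before it in POLR3E and 121 bases before it in TAF12, and was not among the letters of the POLR1C and TAF7 windows. POLR1C held 3 matches to CCGGAAG, of which the pair that begin 127 and 124 bases before the start overlap each other, and TAF12 held 2. Among the 54 windows 12 held an E-box, or 22.2%, against 7.43% of all 27305 windows and 10.3% of the 6736 windows of genes with a tested probe set. By call, the E-box was in 4 of 12 windows of genes called lower, in 1 of 3 of those called higher and in 6 of 31 of those tested and not called. CCGGAAG was in 23 windows (42.6%, against 10.7% of all windows and 18.2% of those of tested genes), and in 5 of 12, 1 of 3 and 13 of 31 by the same calls. TATAAA, the core of the TATA box that TBP binds, was in 3 of the 54 (5.56%, against 12% of all windows and 6.64% of those of tested genes). These shares are descriptions of letters in a window, with no test. The POLR3E window also overlaps a gene of the kind that Pol III transcribes, since 63 of the 82 bases of the leucine transfer RNA gene TRL-AAG2-4 (chr16:22297140-22297221) lie in its upstream end. A tRNA gene overlapped 26 of all 27305 windows (0.0952%) and 1 of the 54.

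Differences were tested with limma over all probe sets that exceeded 20 on 3 or more arrays. A gene was called at an adjusted p (Benjamini-Hochberg over all 13374 probe sets tested) under 0.05 with a fitted change of at least 1.5-fold. Of the 68 genes 59 were tested, 50 of them above 20 on every array. The other 9 (POLR1F, POLR3F, POLR3G, TAF1A, TAF1B, TAF7L, TAF13, GTF2A1 and GTF3C5) lay at or near the floor, with no value above 25.8 on any array. In tretinoin 16 of the 59 were lower (27.1%, against 14.3% of all 8161 genes tested) and 4 were higher (6.78%, against 13.5%), and 39 did not pass. As deposited, without scaling, the counts were 19 lower and 2 higher. Those of all probe sets moved the same way, to 2312 lower and 1142 higher, in place of 1850 and 1824 with scaling. The median log2 fold change was -0.17, with quartiles at -0.71 and 0.07, against a median of -0.04 and quartiles at -0.40 and 0.33 for all genes. A log2 fold change below 0 was found for 37 of the 59 (62.7%) and for 53.3% of all genes. The 3 arrays of each condition did not overlap for 32 of the 59 (54.2%), against 46.3% of all genes. In a bulk culture, fewer cells that hold a transcript and less of it per cell cannot be told apart.

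**Figure D1:**
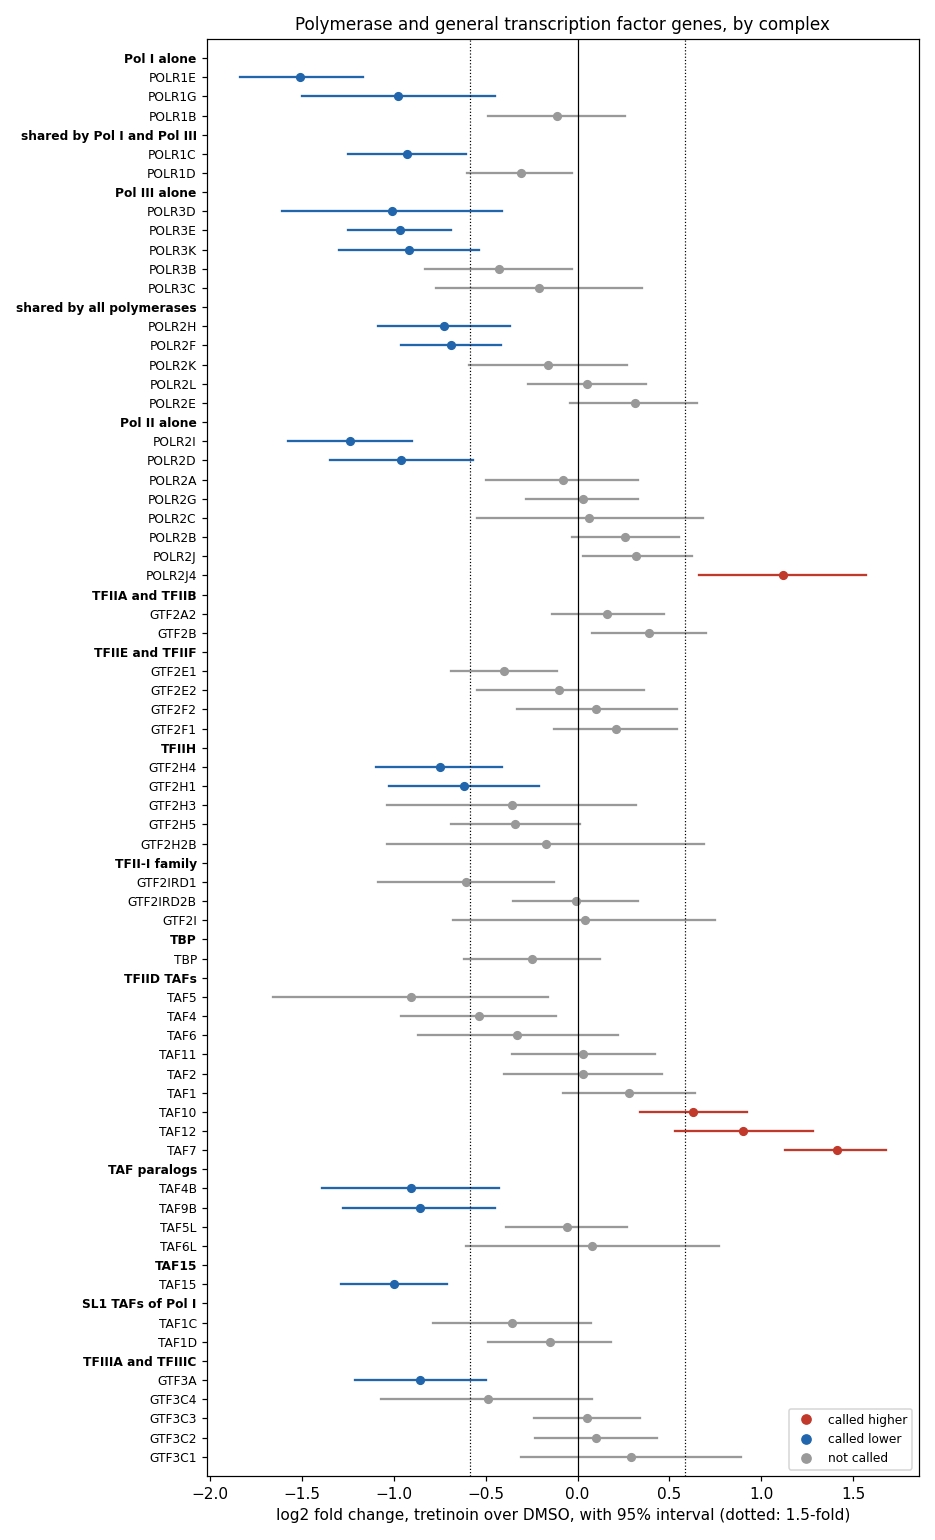
Log2 fold change (tretinoin over DMSO, x axis) of the 59 tested genes with its 95% interval from limma, grouped by complex, red where called higher, blue where called lower and gray where not called. The POLR1 and POLR3 genes lie left of 0, whereas the Pol II genes and the TFIID TAFs lie on both sides of it.

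All 5 tested genes named POLR1 had log2 fold changes below 0 (-1.51 to -0.11, median -0.93), and 3 of them were lower in tretinoin. Over all genes tested, 53.3% were below 0 and 14.3% were lower. POLR1E, which forms a dimer with POLR1G on Pol I that is related to TFIIF, gave 70.6, 67.5 and 55.4 in tretinoin, against 194, 178 and 175 in DMSO, and was 2.83-fold lower (log2 fold change -1.51 ± 0.14, SE, adjusted p = 0.00033). Every tretinoin array was below every DMSO array by more than 2-fold. Its partner POLR1G gave 70.3, 77.6 and 44.8 in tretinoin, against 133.1, 117 and 119 in DMSO, and was 1.92-fold lower (log2 fold change -0.98 ± 0.22, SE, adjusted p = 0.0139). The conditions did not overlap, although the tretinoin arrays spread more than for POLR1E. POLR1C, which with POLR1D forms the assembly platform shared by Pol I and Pol III, gave 43.9, 54.0 and 51.9 in tretinoin, against 89.0, 95.7 and 99.7 in DMSO, and was 1.9-fold lower (log2 fold change -0.93 ± 0.14, SE, adjusted p = 0.00223). That fall was seen on the brighter probe set alone, since the other gave 62.1, 66.0 and 65.5 in tretinoin, against 69.4, 75.1 and 68.8 in DMSO (log2 fold change -0.14, adjusted p = 0.429), and with the mean of both probe sets POLR1C was not called. POLR1D gave 357, 400.1 and 389 in tretinoin, against 480.0, 489 and 452 in DMSO, with no overlap between conditions but no call (log2 fold change -0.31, 95% interval -0.60 to -0.03, adjusted p = 0.0939). POLR1B, the second largest subunit of Pol I, gave 73.0, 104 and 90.3 in tretinoin, against 96.3, 93.1 and 96.4 in DMSO, values that overlapped (log2 fold change -0.11, 95% interval -0.49 to 0.26, adjusted p = 0.644).

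None of the measured Pol I initiation factors was called. The SL1 subunit TAF1C was above 20 on all DMSO arrays and on no tretinoin array, at 20, 20 and 20 in tretinoin against 32.9, 21.1 and 24.3 in DMSO (log2 fold change -0.36, 95% interval -0.79 to 0.07, adjusted p = 0.184), so it was tested only through its DMSO arrays. With a floor of 10 it was called lower (log2 fold change -1.36, adjusted p = 0.0046), and likewise where 16 was added to each value and no floor was set (-0.86, adjusted p = 0.006). TAF1D, another SL1 subunit, had a log2 fold change of -0.15, and UBTF, RRN3 and TTF1, which bend ribosomal DNA, recruit Pol I and end its transcripts, had changes between 0.01 and 0.06. RRN3 was near the floor (26.2, 20 and 29.6 in tretinoin, against 31.3, 20 and 24.4 in DMSO), so its small change says little.

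Pol III showed a like pattern, with all 5 tested POLR3 genes below 0 (-1.01 to -0.21, median -0.92) and 3 of them lower, beside 53.3% and 14.3% of all genes. POLR3E, which pairs with POLR3D in the dimer of Pol III that is related to TFIIF, gave 56.7, 59.0 and 58.4 in tretinoin, against 107, 118 and 117 in DMSO, and was 1.96-fold lower (log2 fold change -0.97 ± 0.12, SE, adjusted p = 0.000943). The tretinoin arrays differed from each other by less than 3 units. POLR3D gave 28.1, 20 and 39.6 in tretinoin, against 52.9, 52.8 and 65.1 in DMSO, and was at least 1.95-fold lower (log2 fold change -1.01 ± 0.25, SE, adjusted p = 0.0214), with 1 tretinoin array at the floor. Its call was lost without DMSO replicate 3 (adjusted p = 0.0692) or without tretinoin replicate 1 (adjusted p = 0.0594), and with a floor of 40 its log2 fold change was -0.50, under the minimum. POLR3K, a small subunit that takes part in cleavage of the transcript and termination, gave 76.3, 68.5 and 57.6 in tretinoin, against 118, 120.5 and 144 in DMSO, and was 1.89-fold lower (log2 fold change -0.92 ± 0.16, SE, adjusted p = 0.00454). Here too the conditions were apart. POLR3B, the second largest subunit, gave 57.3, 73.1 and 49.8 in tretinoin, against 77.3, 84.6 and 77.6 in DMSO, with no overlap and no call (log2 fold change -0.43, 95% interval -0.83 to -0.03, adjusted p = 0.0991). POLR3C overlapped between conditions on its brightest probe set (log2 fold change -0.21, 95% interval -0.77 to 0.35, adjusted p = 0.567). On its other probe set the conditions did not overlap, again without a call (log2 fold change -0.50, 95% interval -0.91 to -0.08, adjusted p = 0.072).

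Of the Pol III factors, TFIIIA was lower and TFIIIC was not called. GTF3A, which is TFIIIA and is needed for 5S ribosomal RNA genes only, gave 509, 421 and 519 in tretinoin, against 777, 963 and 884 in DMSO, and was 1.81-fold lower (log2 fold change -0.86 ± 0.15, SE, adjusted p = 0.00471). Its second probe set gave 504, 507 and 509 in tretinoin, against 791, 741 and 752 in DMSO, and was called lower as well (1.5-fold, adjusted p = 0.00733). Among the subunits of TFIIIC, which binds within transfer RNA genes, GTF3C1, GTF3C2 and GTF3C3 had log2 fold changes of 0.29, 0.10 and 0.05 with overlapping arrays, and GTF3C4 one of -0.49 (adjusted p = 0.172), which was called without tretinoin replicate 2 (-0.71, adjusted p = 0.0471). The other 6 tested genes listed with the Pol III factors were not called (-0.61 to 0.50, median 0.10). They are BRF2 of TFIIIB, SNAPC2, SNAPC3, SNAPC4 and SNAPC5 of the complex at small nuclear RNA genes, and SSB. SSB, which is not an initiation factor, had the lowest value (-0.61, with overlapping arrays).

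The POLR2 genes went both ways. Of 13 tested, 4 were lower (30.8%, against 14.3% of all genes), 1 was higher (7.69%, against 13.5%) and 8 did not pass. Their log2 fold changes ran from -1.24 to 1.12 (median 0.03), and 2 of the 4 lower are in fact shared by all polymerases. POLR2I, a small subunit involved in accurate start site choice and proofreading, gave 126, 116 and 109.5 in tretinoin, against 246, 271 and 316 in DMSO, and was 2.37-fold lower (log2 fold change -1.24 ± 0.14, SE, adjusted p = 0.000794). It stood apart on all arrays. POLR2D, which forms the stalk of Pol II with POLR2G, gave 58.3, 58.8 and 51.0 in tretinoin, against 118, 88.6 and 124 in DMSO, and was 1.96-fold lower (log2 fold change -0.96 ± 0.17, SE, adjusted p = 0.00461), whereas POLR2G gave 418, 424 and 450.2 in tretinoin, against 396, 402 and 474 in DMSO (log2 fold change 0.03, 95% interval -0.28 to 0.33, adjusted p = 0.906). The dimmer probe set of POLR2D gave 20, 20.2 and 30.9 in tretinoin, against 26.0, 29.5 and 34.7 in DMSO and was not called (log2 fold change -0.37, adjusted p = 0.246). The 2 partners of the stalk thus differed in call on these arrays, and the difference between them was not tested.

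The 2 largest subunits of Pol II, POLR2A and POLR2B, were not called, nor were POLR2C and POLR2J. POLR2A, the largest subunit, which carries the C-terminal domain of repeated heptads, gave 49.5, 48.8 and 46.2 in tretinoin, against 60.3, 40.1 and 55.0 in DMSO (log2 fold change -0.08, 95% interval -0.50 to 0.33, adjusted p = 0.773). POLR2B, the second largest, gave 378, 362 and 358 in tretinoin, against 293, 293 and 333 in DMSO, slightly higher with no overlap but without a call (log2 fold change 0.26, 95% interval -0.03 to 0.55, adjusted p = 0.158). POLR2C and POLR2J, the Pol II counterparts of the POLR1C and POLR1D platform, had log2 fold changes of 0.06 and 0.32 (adjusted p = 0.891 and 0.0949). POLR2C gave 102, 194 and 118 in tretinoin, against 143, 105 and 138 in DMSO, with tretinoin replicate 2 above the other tretinoin arrays on this and both other probe sets of the gene. POLR2J gave 401, 369 and 391 in tretinoin, against 339, 293 and 299.5 in DMSO, and is read by a probe set of a type that can bind related copies. Of the same type are the probe sets shown for POLR1B and GTF2H3, the second of GTF3A and both others of POLR2C. The 1 POLR2 gene called higher, POLR2J4, is annotated by RefSeq as a transcribed pseudogene, gave 47.3, 56.5 and 35.6 in tretinoin, against 23.3, 20 and 20 in DMSO, and was at least 2.2-fold higher (log2 fold change 1.12 ± 0.19, SE, adjusted p = 0.00451). It exceeded 20 on only 1 DMSO array, its second probe set was too dim to test, and it cannot be separated here from the near-identical genes of its family.

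Among the 5 subunits found in all polymerases, 2 were lower (beside 14.3% of all genes), and POLR2E, POLR2K and POLR2L were not called. POLR2H gave 146, 181 and 166 in tretinoin, against 310.4, 244 and 261 in DMSO, and was 1.66-fold lower (log2 fold change -0.73 ± 0.15, SE, adjusted p = 0.0102). POLR2F gave 83.2, 77.6 and 77.8 in tretinoin, against 128, 128 and 127 in DMSO, and was 1.61-fold lower (log2 fold change -0.69 ± 0.11, SE, adjusted p = 0.00386), with DMSO arrays that lay close together. For both, every tretinoin array lay below every DMSO array. POLR2E gave 356, 454 and 344 in tretinoin, against 318, 307 and 302 in DMSO on its brightest probe set, where it was not called (log2 fold change 0.31, 95% interval -0.04 to 0.65, adjusted p = 0.165), and 401, 377 and 393 in tretinoin, against 219, 233 and 264 in DMSO on the other, where it was called 1.63-fold higher (adjusted p = 0.00531). POLR2L had a log2 fold change of 0.05, and POLR2K one of -0.16 on its brighter and -0.50 on its dimmer probe set (adjusted p = 0.0239, under the fold minimum).

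**Figure D2:**
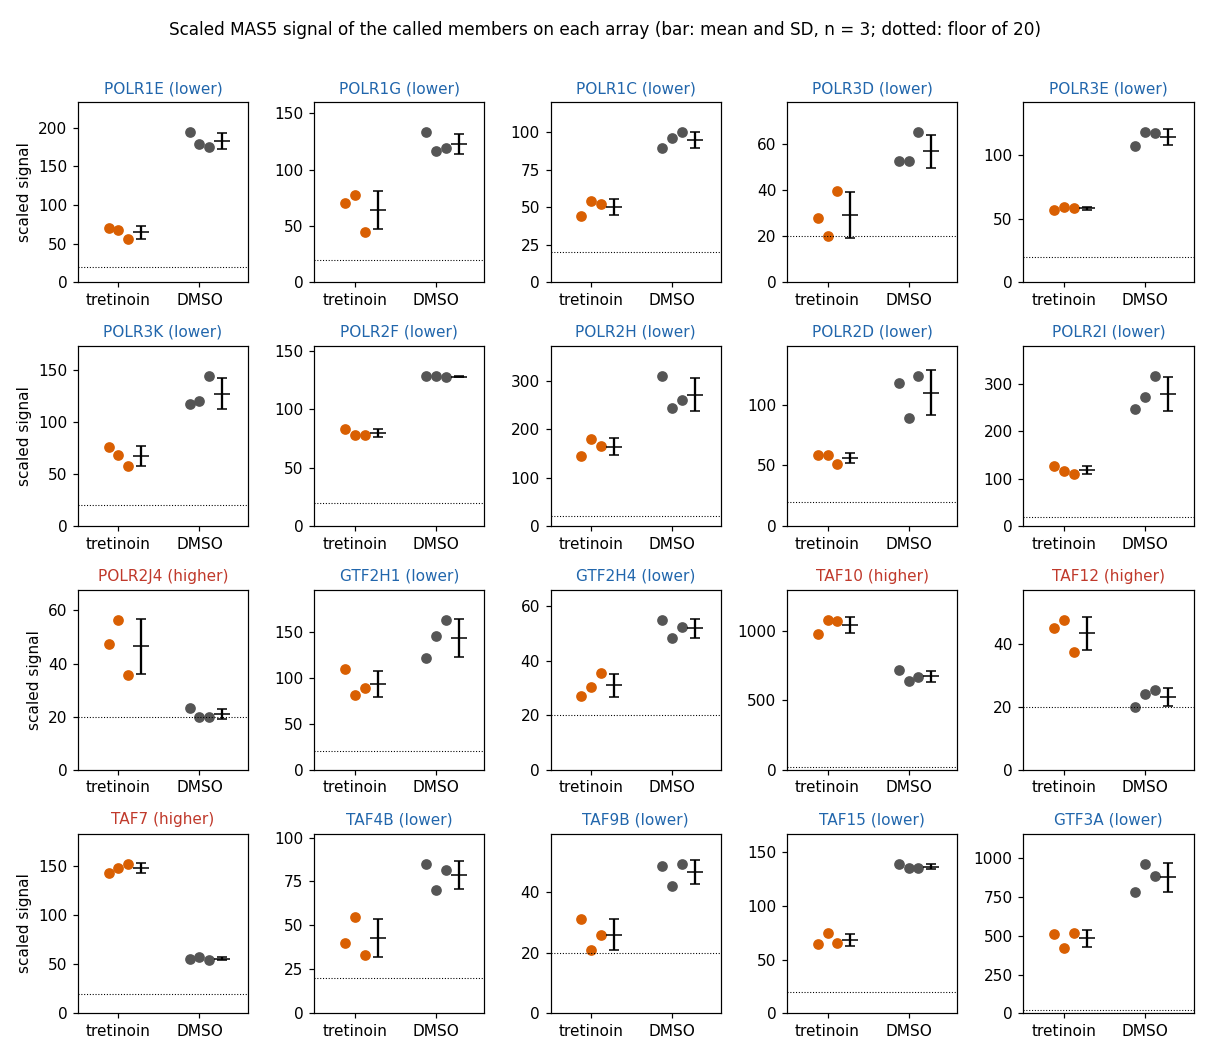
Scaled signal (y axis, from 0) on each of the 3 tretinoin arrays (orange, left) and 3 DMSO arrays (gray, right) for the 20 called genes, with the mean and SD beside the points and a dotted line at the floor of 20. In each panel the arrays of the conditions do not overlap, and POLR3D, POLR2J4 and TAF12 have arrays at the floor.

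Among the general factors of Pol II, no tested gene of TFIIA, TFIIB, TFIIE or TFIIF was called. GTF2B, which is TFIIB and bridges TBP and the polymerase, gave 160.2, 157 and 142 in tretinoin, against 119.6, 125 and 106 in DMSO, higher on every array but without a call (log2 fold change 0.39, 95% interval 0.08 to 0.70, adjusted p = 0.0584), and the TFIIA subunit GTF2A2 had a log2 fold change of 0.16. GTF2E1, the large subunit of TFIIE, gave 82.0, 89.2 and 94.0 in tretinoin, against 113, 123 and 115 in DMSO, with an adjusted p of 0.0438 but a log2 fold change of -0.40, under the minimum. GTF2E2, GTF2F1 and GTF2F2 overlapped between conditions (log2 fold changes of -0.10, 0.21 and 0.10), and GTF2F2 was near the floor, at most 28.4 on any array.

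TFIIH, which opens the promoter and also acts in nucleotide excision repair, had all 5 tested GTF2H genes below 0 (-0.75 to -0.17), with 2 lower. The shares over all genes were 53.3% below 0 and 14.3% lower. The 5 include the pseudogene GTF2H2B, which had an array at the floor in each condition (log2 fold change -0.17, 95% interval -1.04 to 0.69). GTF2H4 gave 27.1, 30.1 and 35.4 in tretinoin, against 54.9, 48.2 and 52.2 in DMSO, and was 1.68-fold lower (log2 fold change -0.75 ± 0.15, SE, adjusted p = 0.00745). With a floor of 40 its log2 fold change was -0.37, and with 16 added to each value and no floor it was -0.53, both under the minimum. GTF2H1 gave 109, 81.4 and 88.7 in tretinoin, against 121, 145 and 163 in DMSO, and was 1.54-fold lower (log2 fold change -0.62 ± 0.17, SE, adjusted p = 0.0322), the weakest of the calls. It was lost when any of DMSO replicates 2 and 3 or tretinoin replicates 2 and 3 was left out (adjusted p from 0.0778 to 0.0948), and its second probe set gave 90.4, 94.1 and 81.0 in tretinoin, against 83.4, 105 and 105 in DMSO, with no call (log2 fold change -0.14). GTF2H3 gave 131, 183 and 126 in tretinoin, against 157, 144 and 282 in DMSO, where DMSO replicate 3 was above the other 5 arrays (log2 fold change -0.36, 95% interval -1.04 to 0.32, adjusted p = 0.395). GTF2H3, GTF2H5 and the pseudogene GTF2H2B did not pass, nor did the 4 tested TFIIH subunits with other names, ERCC2, ERCC3, CDK7 and CCNH (-0.28 to 0.10). Of these ERCC3 and CDK7 were dim, at most 33.2 and 30.7 on any array. In the TFII-I family, whose members act at selected promoters rather than generally, GTF2IRD1 gave 57.7, 55.8 and 62.0 in tretinoin, against 112, 95.6 and 66.5 in DMSO (log2 fold change -0.61, 95% interval -1.09 to -0.13, adjusted p = 0.0597), and was called lower without DMSO replicate 3 (-0.82, adjusted p = 0.0119). GTF2I and GTF2IRD2B had changes of 0.04 and -0.01, both with arrays at the floor.

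TBP, which serves all 3 polymerases, gave 52.2, 58.8 and 42.5 in tretinoin, against 65.2, 58.7 and 57.4 in DMSO, values that overlapped (log2 fold change -0.25, 95% interval -0.62 to 0.12, adjusted p = 0.283). The 9 tested TAFs of TFIID had log2 fold changes from -0.91 to 1.41 (median 0.03). Of these, 3 were higher and 0 lower (beside 13.5% and 14.3% of all genes), and the other 6 were not called. TAF7, which binds TAF1 and restrains its acetyltransferase activity, gave 143, 148 and 153 in tretinoin, against 56.0, 57.4 and 54.1 in DMSO, and was 2.65-fold higher (log2 fold change 1.41 ± 0.11, SE, adjusted p = 0.000189). That was the largest rise among the 59 genes, and every tretinoin array lay above 2 times any DMSO array. TAF10, which TFIID shares with the SAGA coactivator, gave 979, 1080.0 and 1073 in tretinoin, against 717, 638 and 666 in DMSO, and was 1.55-fold higher (log2 fold change 0.63 ± 0.12, SE, adjusted p = 0.00738), just over the minimum. The TAF10 call was lost as deposited without scaling (log2 fold change 0.43, adjusted p = 0.239) and with quantile normalization (0.56, under the minimum). TAF12, also in both complexes, gave 45.0, 47.6 and 37.5 in tretinoin, against 20, 24.2 and 25.3 in DMSO, and was at least 1.87-fold higher (log2 fold change 0.90 ± 0.16, SE, adjusted p = 0.00469). Its DMSO arrays were near the floor, and without scaling it did not pass (0.70, adjusted p = 0.0525).

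The other TAFs of TFIID were not called. TAF5, a scaffold subunit, gave 41.2, 20 and 47.6 in tretinoin, against 68.9, 60.3 and 62.4 in DMSO, with no overlap (log2 fold change -0.91, 95% interval -1.66 to -0.16, adjusted p = 0.0678), and had 1 tretinoin array at the floor. TAF4 gave 62.2, 50.3 and 44.0 in tretinoin, against 64.7, 80.8 and 81.6 in DMSO, also with no overlap (log2 fold change -0.54, 95% interval -0.96 to -0.12, adjusted p = 0.055). TAF5 was called lower without tretinoin replicate 3 (-1.15, adjusted p = 0.043) and TAF4 without tretinoin replicate 1 (-0.68, adjusted p = 0.0386), and both were called lower without scaling (-0.96 and -0.75). TAF1, TAF2, TAF6 and TAF11 overlapped, with changes of 0.28, 0.03, -0.33 and 0.03.

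Genes that encode relatives of the TFIID subunits were lower or not called. TAF4B, a form of TAF4 best known from germ cells, gave 40.2, 54.7 and 33.3 in tretinoin, against 85.2, 69.9 and 81.5 in DMSO, and was 1.85-fold lower (log2 fold change -0.91 ± 0.20, SE, adjusted p = 0.0135). TAF9B, a close relative of TAF9, gave 31.1, 21.0 and 26.0 in tretinoin, against 48.6, 42.2 and 49.5 in DMSO, and was 1.8-fold lower (log2 fold change -0.86 ± 0.18, SE, adjusted p = 0.00903), while its second tested probe set gave 29.8, 25.1 and 28.7 in tretinoin, against 20, 40 and 32.0 in DMSO, which overlapped (log2 fold change -0.08). With a floor of 40 or the mean of both probe sets TAF9B was not called (-0.22 and -0.47). TAF5L and TAF6L, which replace TAF5 and TAF6 in SAGA, had changes of -0.06 and 0.08. TAF15, an RNA-binding protein that was first found with TFIID, gave 65.1, 74.7 and 65.5 in tretinoin, against 139.5, 136 and 135 in DMSO, and was 2-fold lower (log2 fold change -1.0 ± 0.12, SE, adjusted p = 0.000987). Its 3 DMSO arrays lay within 5 units of each other, and every tretinoin array was below them.

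Of the 14 members with more than 1 tested probe set, 12 had the same sign on all of them and 9 had the same call. The calls differed for GTF2H1, POLR1C, POLR2D, POLR2E and TAF9B, and the sign for GTF3C2 and TAF6L, which were not called on any. The other tested genes rest on 1 probe set. Within a condition the coefficient of variation between arrays had a median over the 59 genes of 12.2% in tretinoin and 9.95% in DMSO, against 14.4% in tretinoin and 13.0% in DMSO over all genes.

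**Figure D3:**
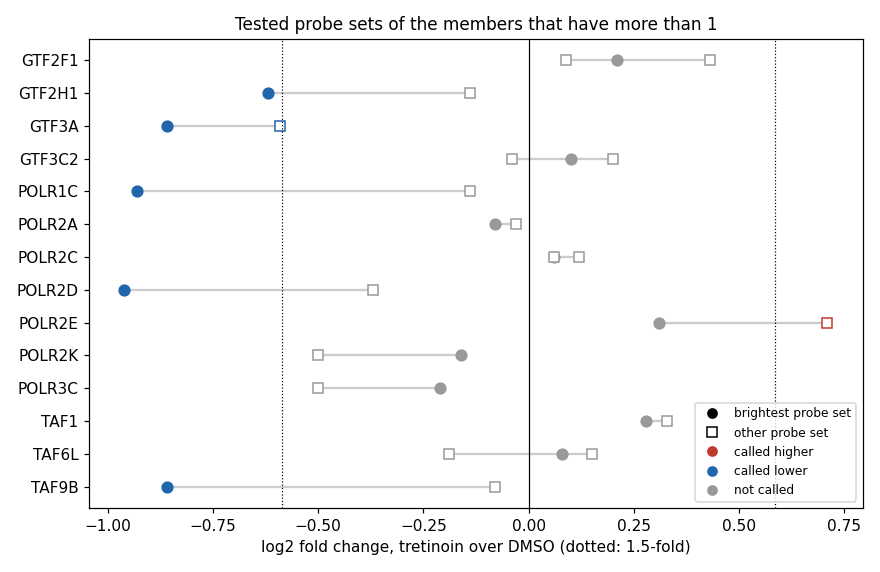
Log2 fold change (tretinoin over DMSO, x axis) of each tested probe set of the 14 genes that have more than 1, with circles for the brightest probe set, squares for the others and colors for the call. For POLR1C, POLR2D, TAF9B and GTF2H1 the call rests on the brightest probe set, and POLR2E was called on the dimmer one.

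Partner factors that the symbols do not cover were taken from 9 lists, each gene again by its brightest probe set. Of 15 tested factors of Pol II assembly and of the phosphatases that act on its C-terminal domain, 7 were lower and 1 was higher (median -0.43, beside 14.3% lower and 13.5% higher over all genes). RUVBL2, an ATPase that acts with RUVBL1 in assembling polymerases and other large complexes, gave 76.8, 74.7 and 83.5 in tretinoin, against 435, 448 and 491 in DMSO, and was 5.85-fold lower (log2 fold change -2.55 ± 0.12, SE, adjusted p = 2.87e-05). No gene among the 59 had a fitted change of that size. RUVBL1 gave 20.1, 20 and 43.5 in tretinoin, against 86.0, 94.7 and 92.9 in DMSO, and was at least 3.27-fold lower (log2 fold change -1.81 ± 0.30, SE, adjusted p = 0.00402), and GPN3, a GTPase needed for import of Pol II into the nucleus, was 2.88-fold lower (log2 fold change -1.50 ± 0.20, SE, adjusted p = 0.0014). In the list of mitochondrial transcription, 4 of 6 tested genes were lower (66.7%, against 14.3% of all genes) and 0 were higher (against 13.5%), with a median of -0.70. TFB2M, which opens mitochondrial promoters, gave 54.6, 50.6 and 59.5 in tretinoin, against 144, 144 and 154 in DMSO, and was 2.68-fold lower (log2 fold change -1.42 ± 0.13, SE, adjusted p = 0.000252). MTERF3, a regulator of the mitochondrial genome, and the mitochondrial polymerase POLRMT itself were 1.95-fold and 1.65-fold lower.

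Of 23 tested elongation factors of Pol II 4 were higher (17.4%, against 13.5% of all genes) and 3 were lower (13.0%, against 14.3%), shares near those of all genes, with a median of -0.01. CDK9, the kinase of P-TEFb that releases paused Pol II, gave 62.8, 56.7 and 77.4 in tretinoin, against 20, 26.6 and 20 in DMSO, and was at least 2.96-fold higher (log2 fold change 1.57 ± 0.18, SE, adjusted p = 0.000795). TCEA1, which is TFIIS and restarts arrested Pol II, gave 240.4, 256 and 267 in tretinoin, against 689, 676 and 731 in DMSO, and was 2.75-fold lower (log2 fold change -1.46 ± 0.12, SE, adjusted p = 0.000189). SSRP1, a subunit of the histone chaperone FACT, was 3.27-fold lower (log2 fold change -1.71 ± 0.16, SE, adjusted p = 0.000284). Mediator, which links activators to Pol II, had 1 of 22 tested genes higher (4.55%, against 13.5% of all genes) and 1 lower (4.55%, against 14.3%). Its median was 0.09, with CDK19 1.52-fold higher and MED22 1.54-fold lower. Of 12 tested SAGA and ATAC subunits without TAF names, TADA3 was 1.84-fold higher and KAT2A, the acetyltransferase, 1.57-fold lower (median 0.31). Each was 8.33% of those tested, against 13.5% higher and 14.3% lower over all genes. Of 4 relatives and regulators of TBP, BTAF1, which removes TBP from DNA, was 1.6-fold lower, and DRAP1, a repressor of TBP-dependent starts, 1.69-fold higher. In this short list each was 25% of those tested, against 14.3% lower and 13.5% higher over all genes.

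**Figure D4:**
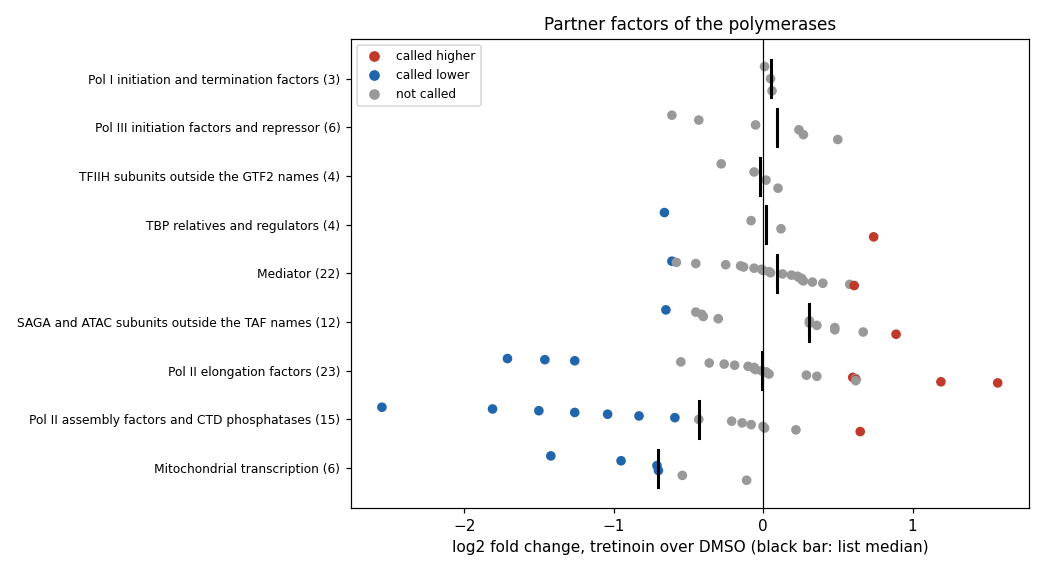
Log2 fold change (tretinoin over DMSO, x axis) of each tested gene in the 9 lists of partner factors, with the number tested in brackets, colors for the call and a black bar at each median. RUVBL2 lies farthest left at -2.55 and CDK9 farthest right at 1.57.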

How the data were processed

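HL60 RNA from 3 tretinoin and 3 DMSO arrays was read on the Affymetrix human U133 A array. The deposited table holds MAS5 signal, an intensity per probe set on a linear scale, which the authors computed from the scanned arrays. The study's methods equalized overall intensity between arrays and raised values under 20 to that baseline. The deposited array means differ and values below 20 are present, so both steps were applied here: all arrays were brought to the mean signal of DMSO replicate 1, a floor of 20 was set, and values were taken to log2. Probe sets above 20 on at least 3 of the 6 arrays were tested by lmFit and eBayes of limma 3.58.1 in R 4.3.3, with Benjamini-Hochberg adjustment over all tested, and called at an adjusted p under 0.05 and 1.5-fold. A fold is the ratio of condition means, given as at least that size where an array of the lower condition was at the floor. Genes were named from the platform annotation, where 19071 probe sets had 1 gene, 1043 several and 2169 none. The fit was tested on simulated data.

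Members and lists were chosen with earlier results of these data known. Values are given for called members, POLR2A and TBP, the member with the largest change in classes without a call, members whose probe sets differ in call, and at most 3 called genes of each partner list; values of the remaining members were added after they had been seen. Alternatives changed the scaling, floor, filter, fold minimum, probe set rule, variance model and replicates.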

Additional observations from a re-analysis of the deposited data

How the results depend on the processing

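Under 22 alternatives no member that was called changed direction, and 5 of the 20 called members (POLR1E, POLR2I, POLR2J4, TAF15 and TAF7) kept their call under each alternative that gave them a value. For POLR2J4 these were 20 of the 22. The count of members higher, 4 in the report, was 2 with a filter of above 20 on all arrays, with a floor of 40, with a fold minimum of 2 and with no scaling. With that filter and with a floor of 40, POLR2J4 and TAF12 were no longer among the tested genes. With a fold minimum of 2, the count of members lower was 4 in place of 16, with 1 each for POLR1, POLR2 and POLR3 in place of 3, 4 and 3, and 1012 probe sets were higher and 860 lower in place of 1824 and 1850. With no scaling 1142 probe sets were higher and 2312 lower, and the median log2 fold change of all probe sets was -0.21 in place of -0.03. With no filter POLR1G, POLR3D, TAF4B and GTF2H1 lost their calls (adjusted p = 0.0732, 0.109, 0.066 and 0.0955, limma). The cause of the other moves was not tested. Leaving out 1 array at a time gave 15 to 16 members lower, 4 higher and 2 to 3 POLR3 genes lower. Replicate numbers did not pair the arrays (correlations of same-numbered deviations -0.027, -0.014 and 0.066), and with the replicate block 15 members were lower and 4 higher, with 1743 probe sets higher and 1758 lower; GTF2H1 was the member that lost its call (adjusted p = 0.0794). Dim probe sets near the floor allow only bounds, and the arrays of a condition carry no spread between cultures.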
